A study of Equus caballus with 4 samples.

Results

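The genes of the equine MHC class II pathway, and unnamed probes of the chromosome 20 region that holds the structural class II genes, were described in horse satellite cells treated with gamma-oryzanol (GO). Members were every probe named DRA, DRB, DQA, DQB, CD74, CIITA, RFX5, RFXAP or RFXANK in the array files, and every probe without a gene name that maps to chr20:26100000-27000000 of the EquCab1 build. Of the 9 names, 7 had a probe, and the 27 named and 9 unnamed probes came to 36 of the 43603 probes on the array. For RFXAP no probe carried this symbol as matched here, and CD74 was found through its gene number alone, so its probe is given beside the members and not counted among them. The names and the window were chosen with the ratios of GO-treated over control cells on these same arrays known. The ratios of the members are therefore a description. Member probes were fitted in limma together with all other probes, but nothing is concluded from their calls.

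Primary satellite cells came from the m. semitendinosus of young colts, and the line with the best viability and fusion was chosen for culture. Both groups were on day 3 of differentiation and both received DMSO at 0.04 μl/ml, in which GO had been dissolved; treated cells were also given 0.125 μM GO for 24 h. On each of 4 arrays, all on 1 slide, RNA of GO-treated cells was labeled with Cy5 and RNA of control cells with Cy3, so an effect of the dye cannot be told apart from that of GO. The labels call the arrays biological replicates without saying that the cultures or animals were separate, and p-values therefore measure the spread between these 4 samples, which may be technical.

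MHC class II molecules are pairs of an alpha and a beta chain that show peptides from the endosome to CD4-positive T cells. In the endoplasmic reticulum the pair is held by the invariant chain, CD74, and DM later exchanges the last piece of that chain for a peptide. Transcription of these genes needs a complex of RFX5, RFXAP and RFXANK on their promoters together with the coactivator CIITA, which interferon-gamma induces in cells that do not carry class II molecules all the time, muscle precursors among them.

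Sequences of probes for the structural genes and for the coactivator are given first, since the comparison of these gene classes rests on such probes. Each is a deposited 60-base probe, read 5′ to 3′, and no base is marked. The DRA probe maps to chr20:26124653-26124712, the DRB probe to chr20:26145607-26145666, the DQB probe to chr20:26466902-26466961 and the CIITA probe to chr13:15756983-15757207, a span longer than the probe itself.
DRA: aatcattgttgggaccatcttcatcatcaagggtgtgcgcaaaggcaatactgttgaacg
DRB: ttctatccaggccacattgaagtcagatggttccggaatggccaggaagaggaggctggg
DQB: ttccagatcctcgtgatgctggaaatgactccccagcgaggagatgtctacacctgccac
CIITA: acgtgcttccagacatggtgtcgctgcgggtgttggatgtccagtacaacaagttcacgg

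DRA, the alpha chain of the DR molecule, was lower in GO-treated cells. Its log2 ratio, GO over control, was -1.76, -2.11, -2.00 and -2.27 on arrays 1 to 4. The value was below 0 on every array and the arrays lay close together. The processed signal of the probe was 239, 288, 282 and 266 in control cells and 70.7, 66.5, 70.8 and 55.4 in GO-treated cells, and the 2 ranges did not overlap. The mean log2 ratio was -2.03 ± 0.21 (SD, n = 4), 4.10-fold lower with GO, and the probe was well above background in both channels on all 4 arrays. After normexp background correction and loess the mean was -1.24. Fewer cells that express a gene and less of its RNA per cell cannot be told apart in these bulk samples.

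DQB, the beta chain of the DQ molecule, had 1 probe under this name. Its log2 ratio was -1.88, -2.19, -2.07 and -3.15 on arrays 1 to 4, with a mean of -2.32 ± 0.57 (SD, n = 4). All arrays were below 0, and array 4 was lowest, where the GO signal was a surrogate value set by the scanner software for a dim spot and not a measured one; the mean was -2.04 without array 4. The control signal was 67.1, 85.1, 69.9 and 56.9, and the GO signal was 18.2, 18.7, 16.7 and 6.42. GO signal was well above background on 2 arrays only, and the size of the ratio moved with the treatment of the background, to -0.72 after normexp and loess.

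DQA, the alpha chain that pairs with DQB, had 4 probes, of which 3 map to different places of the window. The probe at chr20:26223948-26224007 gave -1.95, -1.31, -1.30 and -1.85 on arrays 1 to 4, with a mean of -1.60 ± 0.35 (SD, n = 4). At chr20:26450189-26450497 the values were -1.99, -1.99, -2.43 and -2.36, with a mean of -2.19 ± 0.23. Both were below 0 on all arrays, but GO signal was well above background on 1 array only for each. A DQA probe at chr20:26538415-26538474, well above background in both channels on all arrays, gave -0.63, -1.34, -1.65 and -1.52, with a mean of -1.29 ± 0.46. Array 1 was the nearest to 0 for it. Normexp and loess reduced the 3 means to -0.43, -0.62 and -0.63, with the sign unchanged.

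The DQA probes of the middle and the highest position are shown because 1 begins with bases found near the end of the other, although their places lie apart. Capitals mark this shared run of 12 bases.
DQA, highest position: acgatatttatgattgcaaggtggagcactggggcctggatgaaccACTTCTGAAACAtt
DQA, middle position: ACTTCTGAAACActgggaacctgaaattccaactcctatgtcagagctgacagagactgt

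The remaining DQA probe has no position in the files and was not well above background in either channel on any array. Its ratios were -0.80, 0.27, -0.01 and 0.00, and no difference can be read from them. A stretch of 30 bases of it is set beside the DQA probe of the lowest position, which was measured in control cells, because the 2 differ there at 2 bases, in capitals.
DQA without a position: ggacattccaCcTagttacctaatctctag
DQA, lowest position: ggacattccaTcCagttacctaatctctag

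**Figure D1:**
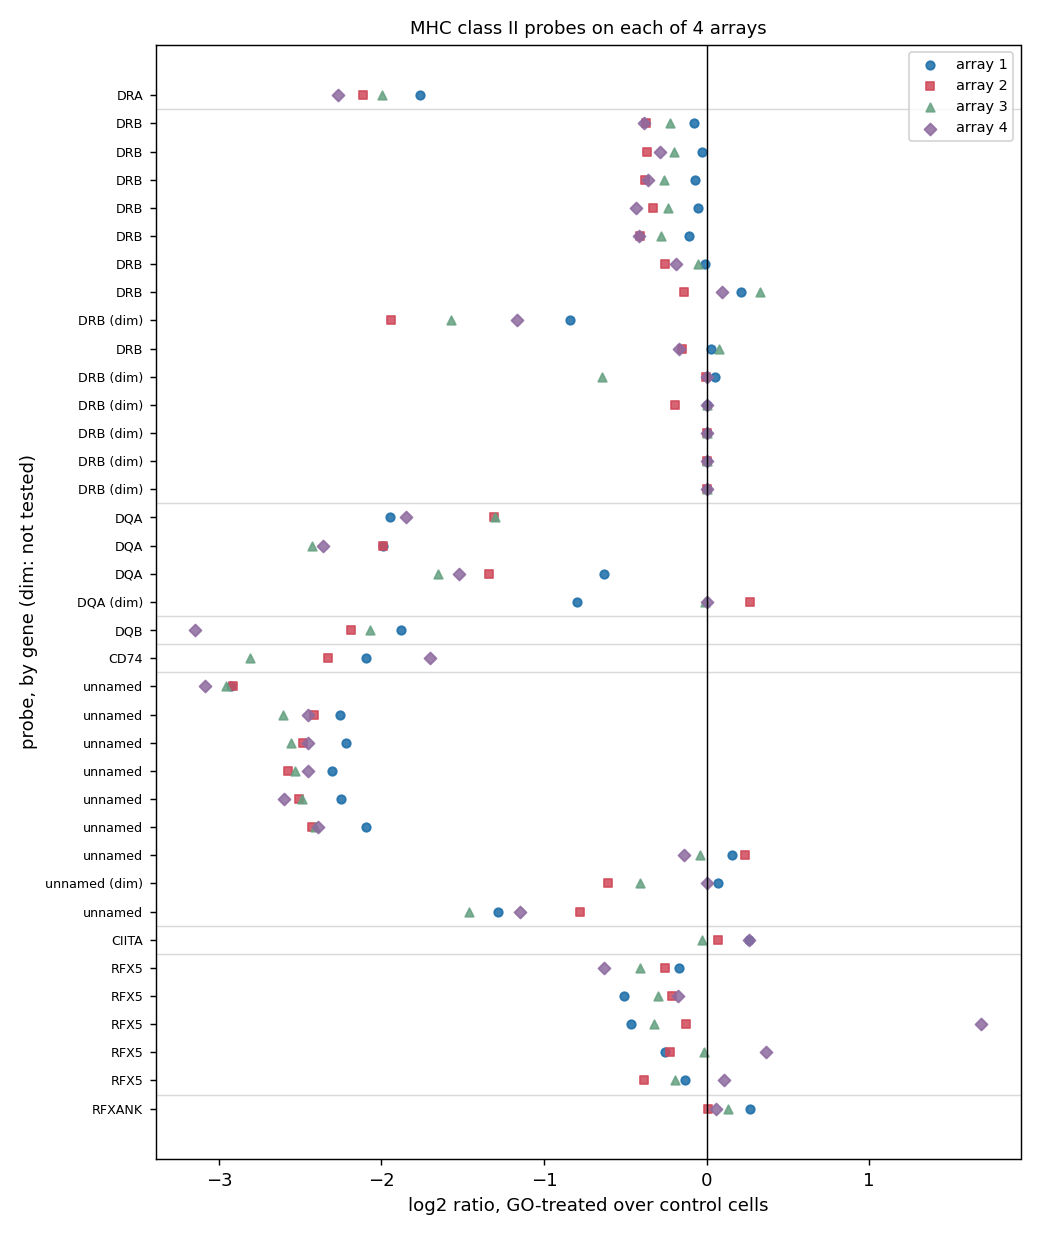
Log2 ratio, GO-treated over control (x axis), for each member probe and for the CD74 probe (y axis, by gene), with 1 point per array; probes marked dim were not tested. DRA lay between -2.27 and -1.76 on the 4 arrays and CIITA between -0.03 and 0.26.

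DRB, the beta chain of the DR molecule, was represented by 14 probes, and 8 of them were tested. The tested probes had means between -0.30 and 0.12, none of them past both thresholds. For 5 tiled probes that begin 1 base apart from chr20:26143258, and so share their target, the means lay between -0.30 and -0.22, below 0 on all 4 arrays. The DRB probe printed above gave -0.01, -0.26, -0.05 and -0.19 on arrays 1 to 4, with a mean of -0.13 ± 0.12 (SD, n = 4). Farther along the chromosome, the probe at chr20:26630234-26631073 gave 0.21, -0.14, 0.33 and 0.09, with a mean of 0.12 ± 0.20. A last one, at chr20:26800239-26801032, had a mean of -0.05 ± 0.13. Ratios of the tested DRB probes were thus smaller in size than that of DRA, the chain they pair with, and their signs were unchanged after normexp and loess and after centring each array on its median without lowess.

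Another DRB probe, at chr20:26789850-26797526, had ratios of -0.84, -1.94, -1.57 and -1.17. Its control signal was well above background on 1 array and its GO signal on 0, with surrogate values on 2, and it was not tested. The last 5 DRB probes are described in the files as DQ-beta, carry no position and were also not tested. On 3 of them the deposited ratio was exactly 0 on every array, where the scanner software had replaced dim signals by surrogate values. Another of the 5, at 0.05, -0.01, -0.65 and 0.00, is shown beside an unnamed probe of the window that was measured in both channels, because the 2 stretches differ at 5 of 30 bases, in capitals.
Probe named DRB, described as DQ-beta: ttgaagccatttGcctgaGTAtagagAttt
Unnamed window probe: ttgaagccatttAcctgaCCCtagagCttt

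CD74, the invariant chain, had 1 probe, at chr14:26862718-26863097, outside the class II region. The log2 ratio was -2.10, -2.33, -2.81 and -1.70 on arrays 1 to 4, with a mean of -2.23 ± 0.46 (SD, n = 4). It was below 0 on every array, and GO signal was well above background on 3 of them. Normexp and loess gave -0.87.

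CIITA, the coactivator, had log2 ratios of 0.26, 0.07, -0.03 and 0.26 on arrays 1 to 4, with a mean of 0.14 ± 0.14 (SD, n = 4). The values lay on both sides of 0, and the signal was well above background in both channels on all arrays, at 53.2, 64.2, 47.0 and 45.4 in control cells and 63.8, 67.3, 46.1 and 54.3 in GO-treated cells. RFXANK, the ankyrin-repeat subunit of the RFX complex, gave 0.26, 0.01, 0.13 and 0.06, with a mean of 0.11 ± 0.11. Neither regulator passed both thresholds, from which nothing is concluded, as the members were chosen on these ratios. The sign of both means was the same after normexp and loess and after median centring without lowess.

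RFX5, the DNA-binding subunit, had 5 tiled probes that begin 1 base apart and share their target. Their means lay between -0.37 and 0.19, and the mean over the 5 was -0.31, -0.24, -0.25 and 0.27 on arrays 1 to 4. Array 4 stood apart from the other 3, and 1 probe, at 1.69 on that array and between -0.47 and -0.13 on the others, had the widest spread and a mean of 0.19 that was -0.31 without array 4. Over all 5 probes the mean was -0.13 ± 0.27 (SD, n = 4), but 0.02 after normexp and loess. The sign of this mean thus did not hold in every scaling, but it includes the probe apart on array 4. After normexp and loess that probe was at 0.33, and the other RFX5 probes lay between -0.15 and 0.03.

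The structural genes were compared with their regulators on each array, with 1 value per gene as the mean of its probes. The mean over DRA, DRB, DQA, DQB and CD74 was -1.43, -1.61, -1.69 and -1.76 on arrays 1 to 4. The mean over CIITA, RFX5 and RFXANK was 0.07, -0.06, -0.05 and 0.20. On every array the structural mean lay below that of the regulators. The difference was -1.50, -1.55, -1.64 and -1.95, with a mean of -1.66 ± 0.20 (SD, n = 4). It was -0.74 after normexp and loess, and -1.31 ± 0.51 when only probes well above background in both channels on all arrays were used, which leaves out DQB and CD74 and keeps of RFX5 only the probe with the widest spread. As the members were chosen on these ratios, the difference was not tested. DRB, with a mean of -0.21 ± 0.11 over its 14 probes, lay nearer to the regulators than the other structural genes did. That mean pools probes at separate places, counts 5 tiled probes of 1 target singly and includes 5 untested probes described as DQ-beta. The DQA mean likewise pools 3 places and includes the dim probe without a position, so neither is the value of 1 transcript.

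**Figure D2:**
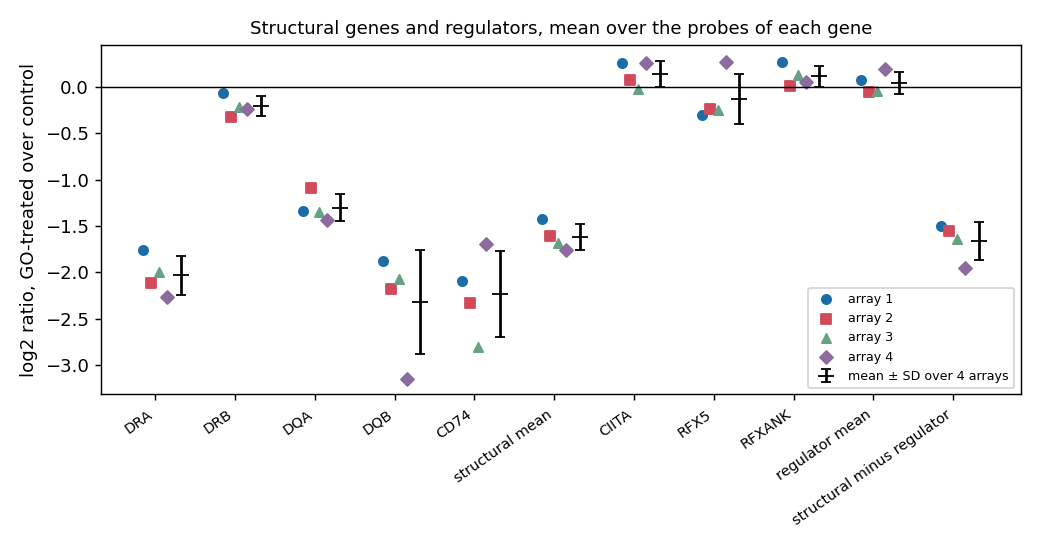
Log2 ratio, GO-treated over control (y axis), for each class II gene as the mean of its probes, for the means over structural genes and over regulators, and for their difference, with 1 point per array and bars for the SD around the mean of 4 arrays. The structural mean was -1.62 and the regulator mean 0.04; RFX5 was at -0.13 but at 0.02 after normexp and loess.

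Unnamed probes of the window numbered 9, and they are described next because they lie among the structural genes. The probe at chr20:26224002-26224061 gave -2.92, -2.91, -2.96 and -3.09 on arrays 1 to 4, with a mean of -2.97 ± 0.08 (SD, n = 4), 7.84-fold lower with GO. It had the lowest mean of all members in the deposited ratios, though not after normexp and loess, and a small spread. The control signal was 347, 300, 372 and 307, the GO signal was 45.7, 39.7, 47.8 and 36.1, and both channels were well above background on all arrays. After normexp and loess the mean was -1.68. In the coordinates of the files its first 6 bases overlap the end of the DQA probe of the lowest position. A stretch of it is printed because a run of 10 bases, in capitals, also occurs in the DQA probe without a position.
Lowest unnamed window probe: tttagGGACCCTGATccaatgtttccatgg

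A further 5 unnamed probes lie at 2 places 129.3 kb apart, 3 at the lower place and 2 at the higher. Between the places they share runs of 56 to 59 bases, so these 5 probes read nearly the same sequence and are not separate observations. The probe at chr20:26335469-26335524 gave -2.30, -2.57, -2.53 and -2.45, with a mean of -2.46 ± 0.12 (SD, n = 4). At the higher place, the probe at chr20:26464787-26464845, a stretch of which is printed above, gave -2.25, -2.51, -2.49 and -2.60, with a mean of -2.46 ± 0.15. Means of all 5 lay between -2.46 and -2.33 and were 5.03- to 5.52-fold lower with GO, with both channels well above background on all arrays. Array 1 was the nearest to 0 for each of the 5. After normexp and loess the means lay between -1.81 and -1.63.

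The last of the lower unnamed probes, at chr20:26559856-26559914, gave -1.28, -0.78, -1.46 and -1.15, with a mean of -1.17 ± 0.29 (SD, n = 4). GO signal was well above background on 1 array, and normexp and loess gave -0.23. A neighboring probe carries the name LOC100060531 and overlaps it, at chr20:26559851-26559910. That probe, picked out after its values were seen, had a log2 ratio of -0.72 ± 0.24 (adjusted p = 0.00681 in limma), lower on 4 of 4 arrays. Its GO signal was well above background on 1 array, and it did not pass after normexp and loess (-0.22, adjusted p = 0.0613) or with no filter on dim probes (adjusted p = 0.0636). The 2 are printed because 6 of 56 bases differ, in capitals.
Highest unnamed window probe: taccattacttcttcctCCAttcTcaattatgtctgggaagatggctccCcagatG
LOC100060531: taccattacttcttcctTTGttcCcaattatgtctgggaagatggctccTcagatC

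The other unnamed probes of the window were near 0 or dim. The probe at chr20:26500244-26500303 gave 0.16, 0.24, -0.04 and -0.14, a mean of 0.05 ± 0.17 (SD, n = 4) that turned to -0.06 with median centring without lowess and to -0.03 after normexp and loess. Beside it, the probe at chr20:26500312-26500371 was not well above background in either channel on any array.

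**Figure D3:**
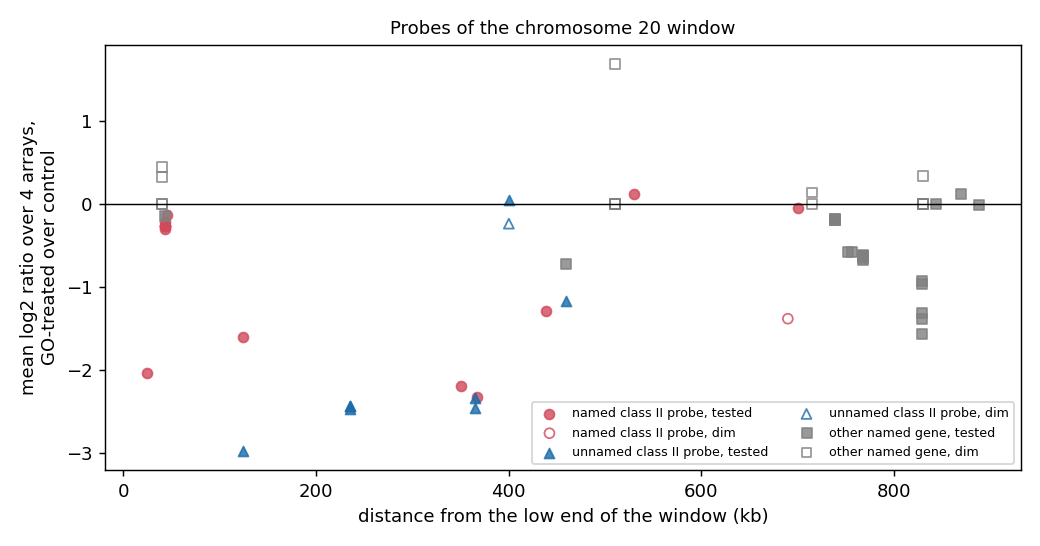
Mean log2 ratio over 4 arrays, GO-treated over control cells (y axis), for every probe of the chromosome 20 window by its distance from the low end in kb (x axis); filled symbols were tested and open symbols were dim. Among unnamed probes the means ran from -2.97 to 0.05, the highest turning to -0.06 with median centring without lowess.

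The unnamed probes nearest to the ends of the window on the inside were the one at chr20:26224002-26224061, with the mean of -2.97 given above, and the one at chr20:26559856-26559914. The first unnamed probe beyond the low end, 161 kb from it, at chr20:25939181-25939240 gave 0.05, 0.04, 0.12 and -0.20, with a mean of 0.0017 ± 0.14 (SD, n = 4). Beyond the high end the first one, at chr20:27952636-27952739, lies 953 kb away, so it is no value of the border, and gave -0.05, -0.11, -0.60 and -0.47, with a mean of -0.31 ± 0.27. Neither of the outside probes passed both thresholds.

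Of the 36 member probes, 28 passed the filter, which asked for a signal well above background in at least 1 channel on all 4 arrays. Of these 28, 19 passed in both channels and 9 through the control channel alone, and the latter had to be bright in control cells. Of the 8 that did not pass, 6 were well above background in neither channel on any array. Past both thresholds, an adjusted p of at most 0.05 in limma and a fold change of at least 1.3, were 12 members, all lower with GO: DRA, DQB, 3 DQA probes and 7 unnamed probes. Of these 12, 8 were well above background in both channels on all arrays and 4 passed the filter through the control channel alone, where a fall is favored. Over all 26832 tested probes, 8.94% were past both thresholds in either direction and 5.61% were lower. Because the members were selected on this contrast, the counts are given side by side and nothing is read from them.

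A hexamer of polyadenylation signals, AATAAA, was searched on both strands of the probes. It occurred in 8 of 36 member probes (22.2%) and in 5208 of all probes (11.9%), and in the members always on the printed strand. The members are not separate sequences, as they include tiled DRB and RFX5 probes and unnamed probes that read nearly the same sequence. A hexamer in a shared target can thus be counted repeatedly, and no enrichment among the members can be read from the percentages. The difference between the percentages was not tested. A match describes the probe and does not show that the signal is used.

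Other genes of antigen processing and class II loading had 13 tested genes, of which 0 were higher and 2 lower with GO in limma (4 at an unadjusted p under 0.05), with a median log2 ratio of -0.00053. Over all genes with a symbol, 314 of 9503 were higher and 511 lower, with a median of 0.0022. DMB, the beta chain of the DM peptide exchanger, fell on 4 of 4 arrays, with ratios of -1.28, -1.54, -1.37 and -1.36, a mean of -1.39 ± 0.11 (SD, n = 4; adjusted p = 0.000563 in limma), and normexp and loess reduced the mean to -0.51. Its GO signal was well above background on 3 arrays, so it passed the filter through the control channel alone, and 5 of the 8 DMB probes were dim, with means of 0 to 0.33. The cathepsin CTSS, which trims the invariant chain, fell on 4 of 4 arrays by 0.48 on the log2 scale (adjusted p = 0.0313), a call that was lost without array 1 (adjusted p = 0.0864), without array 2 (adjusted p = 0.0574), without array 3 (adjusted p = 0.0755) and with no filter on dim probes (adjusted p = 0.143).

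DMA, the partner of DMB, and DOA were looked up after the value of DMB was seen. Their ratios were 0.13, -0.11, -0.11 and 0.08 for DMA and -0.07, -0.01, -0.06 and 0.11 for DOA, on both sides of 0 within each gene. The DM chains thus had unlike values, though the difference between them was not tested. LGMN, the asparaginyl endopeptidase, was at 0.27 ± 0.12 (adjusted p = 0.0388), higher on 4 of 4 arrays but below the fold change threshold, and IFI30, the lysosomal thiol reductase, was at 0.16 ± 0.12 (adjusted p = 0.145). For CTSL no probe carried this symbol as matched here.

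Promoter factors and coactivators of class II genes had 12 tested genes, and 0 passed both thresholds in limma, with 3 at an unadjusted p under 0.05. The median log2 ratio was -0.01. The subunits of NF-Y, which binds the Y box beside the RFX complex, were at -0.12 ± 0.09 for NFYA, -0.01 ± 0.41 for NFYB and 0.01 ± 0.06 for NFYC (SD, n = 4), with NFYB at 0.01 and NFYC at -0.01 after normexp and loess. CREB1, which binds the X2 box, was at 0.07 ± 0.15. HDAC2, a deacetylase picked out after its values were seen, was at -0.31 ± 0.16 (adjusted p = 0.0377), lower on 4 of 4 arrays but short of the fold change threshold, and its adjusted p was 0.0635 to 0.127 when 1 array was left out.

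The interferon-gamma route to CIITA had 12 tested genes, of which 0 were higher and 1 was lower in limma (3 at an unadjusted p under 0.05), with a median of -0.09. The kinases of the receptor were at 0.11 ± 0.08 for JAK1 and -0.25 ± 0.22 for JAK2, and the factor IRF1 was at -0.10 ± 0.24, all short of the thresholds. For the receptor chains IFNGR1 and IFNGR2 no probe carried these symbols as matched here.

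Genes of class II turnover and of partners on T cells and antigen-presenting cells had 9 tested genes, with 1 higher, 2 lower and a median of 0.04. ICOSLG, a ligand of the costimulator ICOS, rose on 4 of 4 arrays (0.65 ± 0.23; SD, n = 4; adjusted p = 0.00861 in limma). The chemokine receptors CXCR4 and CXCR2 fell on 4 of 4 arrays, with ratios of -1.12 ± 0.34 (adjusted p = 0.00475) and -0.51 ± 0.33 (adjusted p = 0.0358). For CXCR4 the GO signal was well above background on 0 arrays, which gives only a bound, at least 1.12-fold lower, from the signal of each channel after normexp, loess and Aquantile scaling, open to dye bias as no dyes were swapped, and CXCR2 was above it on 1 array. After normexp and loess, and with no filter on dim probes, 0 of the genes of this list passed in limma, against 3 in the deposited ratios (6 at an unadjusted p under 0.05), and CXCR2 also did not pass without array 1 (adjusted p = 0.0749), array 3 (adjusted p = 0.0844) or array 4 (adjusted p = 0.0897). CD4, the class II receptor of T cells, was not well above background in either channel on any array.

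Class I antigen presentation, a related pathway for peptides of the cytosol, had 14 tested genes, with 0 higher and 6 lower in limma (9 at an unadjusted p under 0.05) and a median of -0.40. B2M, the light chain of class I molecules, fell on 4 of 4 arrays, with ratios of -1.26, -1.15, -1.43 and -1.02 and a mean of -1.21 ± 0.17 (SD, n = 4; adjusted p = 0.00115 in limma), which was -0.78 with median centring without lowess. PSMB9 and PSMB8, subunits of the immunoproteasome, fell by 0.67 (adjusted p = 0.00874) and 0.58 (adjusted p = 0.0123) on the log2 scale, and the peptide transporter TAP1 fell by 0.58 (adjusted p = 0.00587), each on 4 of 4 arrays. PSMB8 was below the fold change threshold after normexp and loess (-0.31), and with no filter on dim probes 2 genes of the list passed in place of 6.

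Among named genes inside the window that are not members by the rule, the DM and DO genes included, 11 of 14 were tested. In limma 0 were higher and 6 lower (6 at an unadjusted p under 0.05), with a median of -0.58. DMB, TAP1, PSMB8 and PSMB9 are also counted in the lists above, so this is not a separate set of genes. DMB, TAP1, PSMB8, PSMB9 and LOC100060531 are described above. The remaining one, named CD535594 in the files, fell on 4 of 4 arrays, with ratios of -0.89, -1.23, -1.46 and -1.66 and a mean of -1.31 ± 0.33 (SD, n = 4; adjusted p = 0.00288 in limma), and -0.68 after normexp and loess. Its probe at chr20:26929296-26929355 lies next to that of DMB at chr20:26929426-26929485, and whether the 2 read separate transcripts was not tested. A dim probe at chr20:26610120-26610179, picked out after its values were seen, went the other way, with ratios of 0.96, 1.64, 2.07 and 2.06 and GO signal well above background on 2 arrays and control signal on 0; it was not tested, and the other probes of that transcript were at 0.

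**Figure D4:**
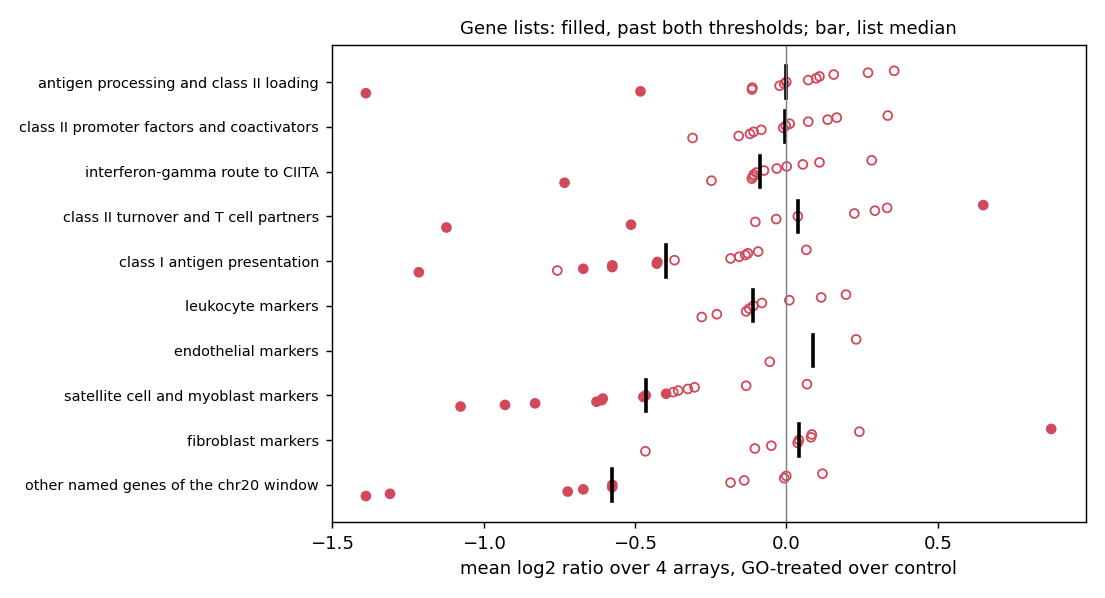
Mean log2 ratio over 4 arrays (x axis) of each tested gene in the lists around the class II genes and in the marker lists (y axis), with filled points past both thresholds and a bar at the median of the list. Medians were -0.00053 for antigen processing, -0.40 for class I presentation and -0.46 for satellite cell and myoblast markers.

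Genes whose ratios over the 4 arrays lay nearest to those of DQB were looked for among 9495 named genes that are not members, by Euclidean distance. The nearest were GVINP1 (distance 1.29), IRF7 (1.53), CD200 (1.60), CD74 (1.65) and PARP15 (1.71). GVINP1, named as a pseudogene of the interferon-inducible very large GTPases, had ratios of -2.03, -1.67, -3.10 and -2.58 with GO signal well above background on 1 array. IRF7, a factor of the type I interferon response, gave -2.30, -2.10, -2.93 and -1.96, and both channels were well above background on all arrays. The surface protein CD200 was at -1.67 ± 0.20 and PARP15, a mono-ADP-ribosyltransferase, at -1.79 ± 0.23 (SD, n = 4). The order rests on a DQB probe with dim GO signal and a surrogate value on array 4, and DQB was picked on the same arrays, so the nearness describes the deposited ratios only. Normexp and loess gave -0.72 for DQB, -0.76 for GVINP1, -0.79 for CD200, -0.87 for CD74 and -0.87 for PARP15 but -2.12 for IRF7, which was then no longer near DQB. The offset of 50 in that scaling draws the ratio of a dim probe such as that of DQB nearer to 0, so this distance also depends on signal.

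Class II molecules are carried by leukocytes, so markers of other cell types were read from the same arrays. Of 32 leukocyte markers 28 had a probe, 9 were tested, and 0 passed both thresholds in limma, with 3 at an unadjusted p under 0.05 and a median log2 ratio of -0.11. The summed signal of the list was 7784, 8216, 7236 and 7186 in control cells and 8715, 8437, 7685 and 7278 in GO-treated cells on arrays 1 to 4, with CD14 the brightest gene. The sum was higher with GO on each array, but bright probes weigh most in it. CD14 was at 0.11 on the log2 scale, whereas the median of the tested markers was below 0. The macrophage marker CD68 was at -0.28 ± 0.18 (SD, n = 4; adjusted p = 0.0597), 11 markers were well above background in neither channel on any array, and for PTPRC no probe carried this symbol as matched here. Of 12 endothelial markers 9 had a probe and 2 were tested, of which 0 passed in limma and 1 had an unadjusted p under 0.05, with a median of 0.09; ERG was brightest, and the summed signal was 277 to 427 with GO and 278 to 422 in control cells.

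Markers of satellite cells and myoblasts checked the labeled cell type: all 15 with a probe were well above background in control cells on all arrays, though for PAX7 no probe carried this symbol as matched here. Of these 15, 9 fell and 0 rose in limma (13 at an unadjusted p under 0.05), with a median of -0.46. MYH8, a myosin of developing muscle, was at -1.08 ± 0.43 (SD, n = 4; adjusted p = 0.00824 in limma), the myogenic factor MYF5 at -0.93 ± 0.04 (adjusted p = 0.00102) and DES, a filament of muscle cells, at -0.61 ± 0.24 (adjusted p = 0.0113), each lower on 4 of 4 arrays, and DES was at -0.33 and below the fold change threshold with median centring without lowess and did not pass without array 2 (adjusted p = 0.0549). With no filter on dim probes MYH8 (adjusted p = 0.0804) and DES (adjusted p = 0.0790) did not pass, and MYF5 did (adjusted p = 0.0162). MYOD1 was at -0.36 ± 0.33 (adjusted p = 0.0905), and at -0.51 without array 1 (adjusted p = 0.0218). The summed signal, led by ACTC1, was 339766, 416535, 438892 and 318348 in control cells and 285284, 299995, 279725 and 212280 with GO. Of 9 tested fibroblast markers, led by COL1A2 and read from their brightest probe, PDGFRA alone passed in limma, higher on 4 of 4 arrays (0.87 ± 0.48, adjusted p = 0.0199). It did not pass without array 2 (adjusted p = 0.0745), with no filter on dim probes (adjusted p = 0.126) or after normexp and loess (0.37). The median was 0.04. Fainter probes were called for COL1A2 (2 of 9), POSTN (2 of 4) and DCN (1 of 2). Probe means reached down to -0.51 for POSTN and up to 0.42 for DCN. The summed fibroblast signal was 380443, 393470, 447009 and 282277 in control cells and 363313, 390663, 404957 and 293075 with GO. Muscle markers called in limma were lower with GO, as were the called class II probes, which had been chosen on these ratios. Not called were 6 muscle markers and the 8 tested DRB probes, and the other 6 DRB probes were not tested. Whether the groups are linked was not tested.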

How the data were processed

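Intensity values, per the file headers, were extracted with Feature Extraction 10.10.1.1 (the methods name another version), background-subtracted, detrended and corrected for dye bias by linear and lowess normalization. The log10 ratios deposited by the authors compare processed Cy5 with processed Cy3 and were multiplied by 3.32 to give log2 values. Control spots (1417 per array) and outlier spots were removed and spots of 1 probe averaged. A probe was tested when all its spots were well above background in at least 1 channel on all 4 arrays, which gave 26832 probes. This rule for several spots was set after the counts had been seen, to give the number of tested probes known from earlier results of these data; when a majority of the spots had to pass, 26834 probes were tested and 894 higher and 1505 lower calls were made, as in the rule used. The ratios were tested against 0 (two-sided) with limma 3.58.1 in R 4.3.3 (lmFit on an intercept, eBayes), with Benjamini-Hochberg adjustment over all tested probes; the methods give the thresholds and do not name the test. The fit was tested on simulated data of independent normal noise, without surrogate values, a dye effect or probes that share a target, so that test does not cover these limits. Alternatives were normexp (offset 50) with loess, median centring without lowess, other filters, means per gene and each array left out.

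Other tools were data.table (version 1.17.8), pandas 2.3.3 and numpy 2.4.6 in python 3.11.15. Positions are those of the files (EquCab1). RefSeq names (TB-T2T assembly, names only) were given to 1684 probes by gene number and 428 by accession, the array files' descriptions named 12 more (DM and DO genes), and 16517 probes had no name. List genes were read from their brightest probe. Named were all member genes, unnamed probes past both thresholds and those at the window ends, up to 4 changed genes per list (otherwise the 2 largest changes each way), fixed pathway and marker genes, and the 5 genes nearest to DQB. By this rule 1 further gene would be named; it is not reported here, though counts include it. Members and lists were chosen with earlier results of these data known.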

Additional observations from a re-analysis of the deposited data

Results flagged for a closer look

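Among 72 sets of 4 array values, 6 had 1 array far from the other 3. Chance flags about 1 in 20 separate sets, a rate that does not apply here because some sets overlap and some hold tied surrogate values. The RFX5 probe with the widest spread was at 1.69 on array 4 and at -0.47, -0.13 and -0.32 on arrays 1 to 3, and the mean over the 5 RFX5 probes, which includes it, was at 0.27 on array 4 and between -0.31 and -0.24 on the others. The signal of that probe on array 4 was 77.4 in control cells and 250 in GO-treated cells, and 29.7 to 47.6 over both groups on the other arrays. One unnamed window probe, at chr20:26464788-26464847, was at -2.09 on array 1 and between -2.43 and -2.39 on the others. Of the class I genes, PSMB8 was at -0.92 on array 3 and between -0.48 and -0.45 on the others. Each of 2 dim DRB probes described as DQ-beta also had 1 array apart, at -0.65 on array 3 (between -0.01 and 0.05 on the others) and at -0.19 on array 2 (0 on the others).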

How the results depend on the processing

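Normexp was run with an offset of 50 in both channels, which by its arithmetic brings ratios of dim probes nearer to 0. How much of each shift below this makes was not tested, nor was any other cause. After normexp and loess, 1297 probes passed in place of 2399, 0 genes of class II turnover passed, and the structural minus regulator difference was -0.74. With no filter on dim probes 908 passed, with 1 gene of antigen processing, 0 of the interferon-gamma route, 0 of turnover, 2 of class I presentation and 3 of the window. Requiring both channels gave 1 gene of antigen processing, 1 of turnover and a difference of -1.31. Median centring without lowess moved the median member ratio from -0.26 to -0.45 and gave 1740 higher and 1650 lower probes (51.3% higher, against 37.3%). Without 1 array, 1553 (array 2) to 2433 (array 1) probes, 1 to 2 genes of antigen processing and 0 to 1 of the interferon-gamma route passed. Promoter factors (0 genes) and unnamed window probes (6 to 7) moved little in any setting, and no called value changed sign. Among member probes and the CD74 probe, normexp and loess moved 19 means by more than the SD over arrays and 18 by less, and median centring without lowess moved 2 by more and 32 by less; leaving out 1 array of 4 cannot move a mean that far. Among named genes 237 values kept their side of the thresholds, 27 lost their call and 1, that of MYOD1, gained one.

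Alternatives chosen after seeing the data gave a structural minus regulator difference of -1.51 without CD74, -1.68 without DRB probes described as DQ-beta and -1.63 without the RFX5 probe apart on array 4. The ratio pairs the groups on each array, so the fit used is the paired one. Signal limits the ratios: the median spot was 2.85 to 4.37 times its background in GO-treated cells and 3.66 to 4.22 times in control cells, and dim GO signals leave the size of a fall uncertain.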
